A study of Mus musculus with 18 samples.

Results

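Lysosomal genes were followed across mouse osteosarcoma cells with and without deletion of Prmt1, the main type I protein arginine methyltransferase. The 33 genes were taken by symbol from the 19862 genes of the deposited expression matrix, and all 33 were found. They comprise 8 proteases, 9 glycosidases and related enzymes (including the sulfatase Sgsh), 5 genes of lipid handling, 5 membrane proteins, 5 subunits or partners of the proton pump, and the transcription factor Tfeb. The rule picks rows by symbol and uses no measured value, but the symbols were chosen with earlier results of these data known. The counts below are therefore not from a set chosen blind to the data. All 33 passed the filter on low values (above 0 in at least 3 libraries).

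Lysosomes are acidic organelles that break down proteins, glycans and lipids delivered by endocytosis and autophagy. Their hydrolases are made on ribosomes of the endoplasmic reticulum and carried to the organelle by sorting receptors, and a vacuolar-type proton pump (V-ATPase) keeps the lumen acidic. TFEB and its relatives TFE3 and MITF are transcription factors that bind E-box elements near many lysosomal genes and are held in the cytoplasm when mTORC1 is active. In bone, secreted lysosomal proteases such as cathepsin K are best known from osteoclasts.

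The cells came from osteosarcomas of p53 and Rb conditional knockout mice of a mixed background, labelled post natal day 299, so both arms share the p53 and Rb alleles, the floxed Prmt1 alleles and a stably expressed CreER. Control cells received ethanol as vehicle (their genotype is labelled wild type although they are Prmt1f/f), and knockout cells, labelled Prmt1-/-, received 4OHT, which activates CreER. RNA was taken from cleared cytoplasmic lysate (Total), from sucrose gradient fractions with fewer than 3 ribosomes (Light) and from fractions with more than 3 ribosomes (Heavy). Each of the 6 groups holds 3 libraries, 18 in all, of 32255673 to 57948663 reads. No group received 4OHT without floxed Prmt1, so effects of 4OHT and active CreER cannot be told apart from those of the deletion. The labels do not say whether the 3 libraries of a group are separate cultures or clones, so p-values measure the spread between these libraries, which may be technical.

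Prmt1 itself fell from 273 to 166 CPM (counts per 1000000 reads) in Total (log2 change -0.72, limma adjusted p = 0.0202) and from 387 to 110 CPM in Heavy (-1.88, adjusted p = 7.87e-06). In Light it was 239 CPM in control and 210 CPM in knockout, a difference that did not pass the test (-0.20, adjusted p = 0.506). The sources used here do not give the exons that Cre removes, and reads from the rest of the gene do not test the deletion. Every value here is a share of a bulk library, so fewer cells expressing a gene and less of its RNA per cell cannot be told apart, and a share within a fraction is not a rate of translation.

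Promoter sequences show which of these genes carry the E-box letters that TFEB and its relatives recognise. RefSeq windows of 300 bases (250 before to 50 after the start, build GRCm38.p6) were available for 28 of the 33 genes. The longest form of the element, TCACGTGA with G before and C after it, was in 0 of the 28, against 0.586% of the 15006 genes of the table with a window. Its core TCACGTGA was in 5 of 28 (17.9%), against 1.69%, and the E-box CACGTG, which lies inside both longer forms, was in 12 of 28 (42.9%), against 10.2%. All 3 motifs are palindromes, so a match counts for both strands. The windows with TCACGTGA are shown because they hold the longest match found among these genes, in the direction of the gene, with the 8 matched bases in capitals.
Ctsa: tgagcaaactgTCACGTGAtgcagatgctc
Ctsa, another match: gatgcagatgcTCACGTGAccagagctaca
Ctsd: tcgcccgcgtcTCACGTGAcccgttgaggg
Mcoln1: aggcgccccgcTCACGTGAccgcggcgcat
Atp6v0d1: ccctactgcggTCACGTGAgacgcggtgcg
Atp6v1a: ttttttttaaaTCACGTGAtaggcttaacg

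The Ctsa matches lie at chr2:164833749-164833778 and chr2:164833766-164833795 on the plus strand, with centres 9 bases on either side of the RefSeq start. The Ctsd match is at chr7:142387908-142387937 on the minus strand, 95 bases upstream of its start. Mcoln1 has its match at chr8:3500462-3500491 (plus strand), 42 bases upstream, and Atp6v1a at chr16:44139373-44139402 (minus strand), 128 bases upstream. In Atp6v0d1 the match spans the start itself, at chr8:105566050-105566079 on the minus strand. A further 7 genes held CACGTG without the flanking letters, among them Lamp1, where a script found it at 4 positions, 58, 42, 25 and 12 bases upstream, and Glb1, 45 bases upstream. In Total RNA the median log2 change after Prmt1 deletion was 0.57 for the 5 genes with TCACGTGA (0.34 to 1.77), 0.87 for the 7 with only CACGTG (-1.61 to 1.21, Glb1 being the lowest) and 0.87 for the 16 with neither (-0.24 to 1.61). The medians of the 3 sets, in the same order, were 1.28, 1.15 and 1.46 in Light and 1.24, 0.81 and 0.76 in Heavy, so the order of the sets differed between fractions. The matches are letters in a window and no measurement of binding.

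Most of the 33 genes were higher in knockout cells in every RNA fraction. In Total, 24 rose and 1 fell (limma, Benjamini-Hochberg adjusted p under 0.05), where 16.1% of all 17515 tested genes rose and 10.3% fell (26.4% in either direction). In Light, 30 rose and 1 fell, against 26.8% and 12.7% of all genes (39.5% in either direction). In Heavy, 24 rose and 2 fell, against 18.5% and 10.4% (28.9% in either direction). The median log2 change of the 33 was 0.83 in Total, 1.25 in Light and 0.79 in Heavy, beside 0.01, 0.05 and 0.02 for all tested genes. Over the 11602 genes that averaged 1 CPM or more the Light median was 0.14, and relative to it the 33 genes had a median of 1.11. All log2 changes are on the log2(CPM + 1) scale, which understates changes of genes at low levels.

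The same gene often rose in all 3 fractions. Of the 33, 22 rose in Total, Light and Heavy, 31 rose in at least 1 fraction, and 5 rose in Light only by this test (Ctsk, Naglu, Sgsh, Asah1 and Tfeb, of which the test of Heavy against Light changes passed for Ctsk). Over all tested genes 16.1% rose in Total, 26.8% in Light and 18.5% in Heavy. At most 16.1% of them thus rose in all 3 fractions, and at least 26.8% in at least 1. The exact shares of all tested genes for these joint counts were not taken. Glb1 fell in all 3 fractions, and Gusb, the other gene that rose in none, fell in Heavy only. A rise of at least 1 on the log2 scale was reached by 13 genes in Total, 20 in Light and 13 in Heavy. Over the 11602 genes averaging at least 1 CPM, the highest 5% began at 0.96, 1.25 and 1.09. Libraries of the 2 arms did not overlap, with knockout higher, for 29 genes in Total, 30 in Light and 24 in Heavy, where the share over genes of at least 5 CPM was 24.9%, 39.6% and 25.7%. With knockout lower, 2 genes did not overlap in each fraction (Glb1 and Gusb), against 28.6%, 24.7% and 20.9%. The plot of changes by fraction shows the 33 genes in their role groups.

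**Figure D1:**
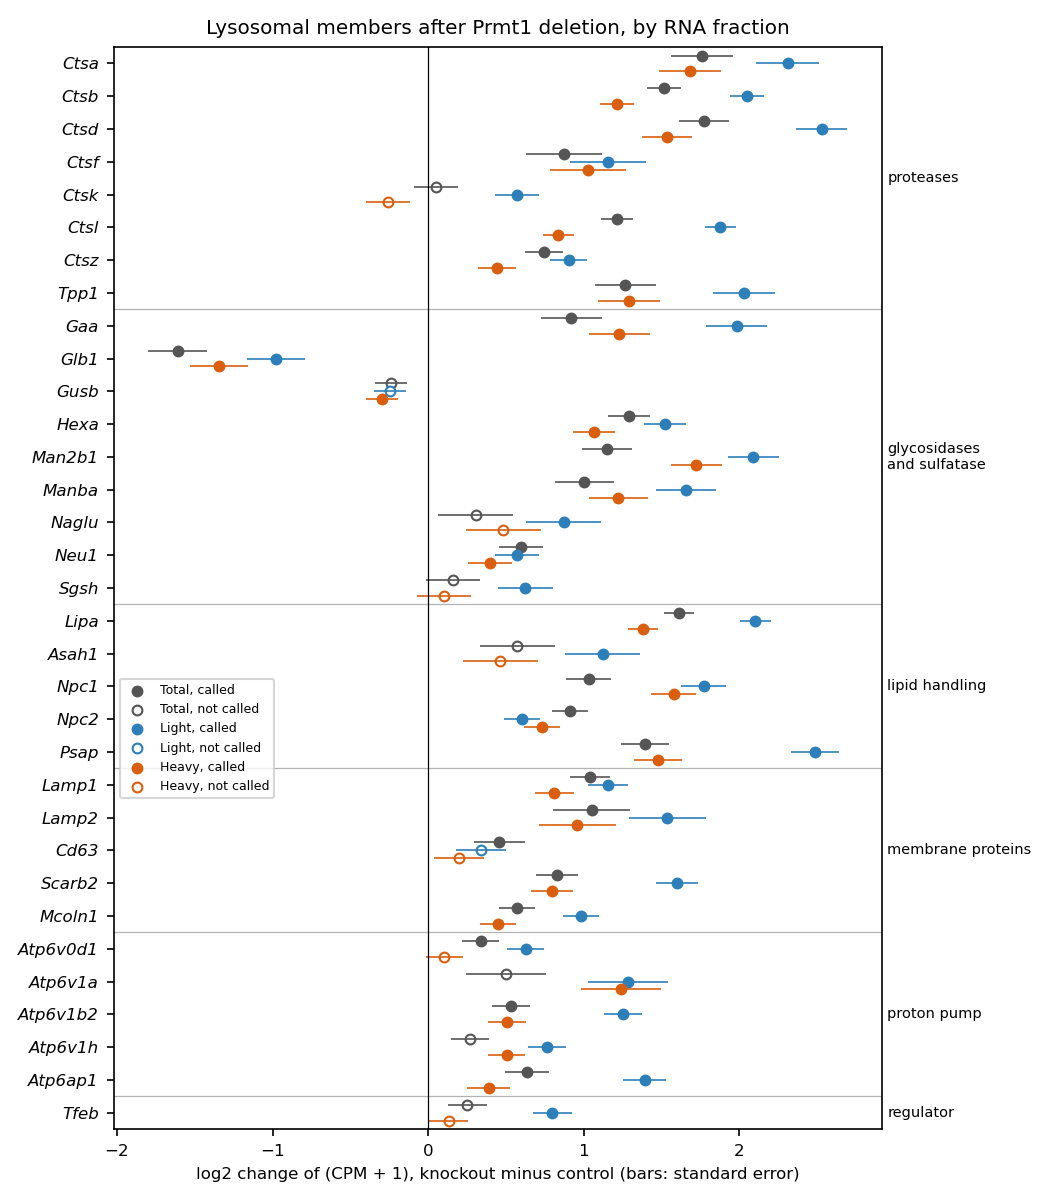
Log2 change of (CPM + 1), knockout minus control, for the 33 genes in Total (grey), Light (blue) and Heavy (orange) RNA, with 3 libraries per group. Bars are standard errors, filled points passed adjusted p under 0.05 and open points did not. The Light points lie furthest right for most genes, and Glb1 lies left of 0 in all 3 fractions.

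Against all other genes the 33 sat in the upper part of the distribution. Of the 11602 genes with at least 1 CPM, the upper quartile began at 0.27 in Total, 0.54 in Light and 0.40 in Heavy, and 27, 30 and 24 of the 33 lay above these values. The highest 5% began at 0.96, 1.25 and 1.09, with 13, 17 and 11 of the 33 above. Light changes of all genes moved with coding length (median -0.40 up to 600 coding nucleotides and 0.39 above 2400). Within the class of 1200 to 1800 nucleotides, which holds 16 of the 33, the Light median was 1.32 for those 16 and 0.24 for the 2575 genes of that class. Total gave 0.85 against 0.00 in that class, and Heavy 0.80 against 0.03. The 8 genes of 600 to 1200 nucleotides had medians of 0.66, 1.01 and 0.45 in Total, Light and Heavy, against -0.04, 0.00 and -0.10 for their class, and the 4 above 2400 had 1.02, 1.88 and 1.40, against 0.04, 0.39 and 0.35. The 4 genes of 1800 to 2400 nucleotides did not stand apart from their class by the median, with 0.03 against -0.01 in Total, 0.31 against 0.31 in Light and 0.09 against 0.13 in Heavy.

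**Figure D2:**
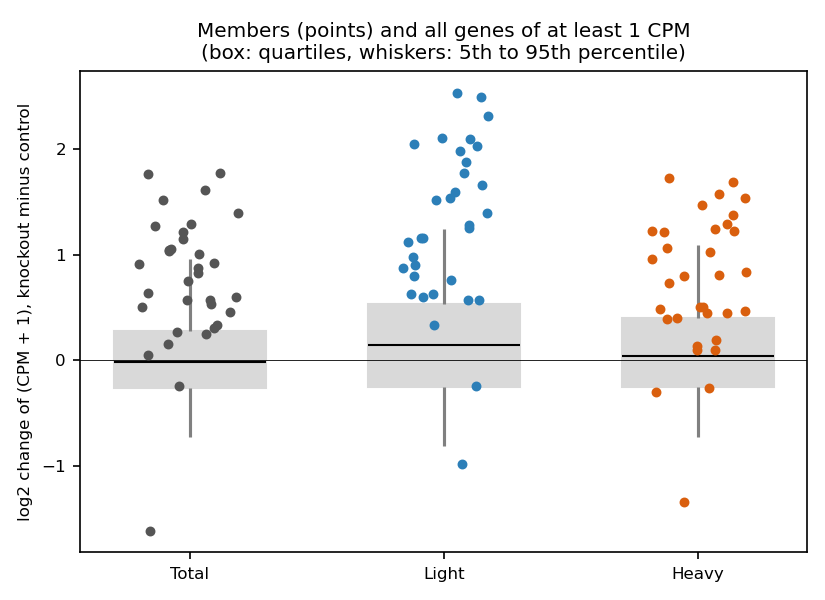
Log2 change of (CPM + 1), knockout minus control, of each of the 33 genes (points) beside the 11602 genes that averaged 1 CPM or more (box from lower to upper quartile with the median line, whiskers from the 5th to the 95th percentile). The horizontal spread of points within a fraction has no meaning. In Light 30 of the 33 points lie above the box.

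Of the 8 proteases, 7 rose in Total, 8 in Light and 7 in Heavy, Ctsk being the exception in Total and Heavy. Their median log2 changes were 1.24, 1.95 and 1.12. Cathepsin D (Ctsd), an aspartic protease, was at 168, 193 and 199 CPM in the control Total libraries and 724, 593 and 607 CPM in the knockout ones. In Light it was at 137, 121 and 113 CPM against 915, 649 and 617 CPM, and in Heavy at 360, 327 and 335 CPM against 1249, 937 and 824 CPM. The arms did not overlap in any fraction, and the mean rose 3.44-fold in Total, 5.88-fold in Light and 2.94-fold in Heavy. The log2 changes of Ctsd were 1.77, 2.53 and 1.53 (SE 0.16 each), with limma adjusted p of 8.73e-07, 1.69e-08 and 3.59e-06. In the gene annotation 34.4% of the exon bases of Ctsd are shared with the same-strand gene Gm49369, and reads there cannot be assigned with certainty.

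Cathepsin A (Ctsa), a carboxypeptidase that also stabilises neuraminidase and beta-galactosidase, went from 162, 212 and 179 CPM to 734, 584 and 564 CPM in Total. Its Light values were 124, 126 and 101 CPM in control and 718, 544 and 503 CPM in knockout. All knockout libraries stood above all control libraries, and the log2 changes were 1.76 in Total, 2.31 in Light and 1.68 in Heavy (SE 0.20 each). Cathepsin B (Ctsb), a cysteine protease, had 296, 330 and 298 CPM in control Total and 907, 915 and 820 CPM in knockout. In Light it had 218, 211 and 206 CPM against 1014, 840 and 799 CPM, and in Heavy 600, 573 and 520 CPM against 1377, 1381 and 1174 CPM. The 3 fractions thus rose by 1.51, 2.05 and 1.21 on the log2 scale (SE 0.11, limma adjusted p of 6.35e-08, 2.45e-09 and 5.76e-07).

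Cathepsin L (Ctsl), another cysteine protease, was the most abundant of the group per kilobase of coding sequence. It rose from 406 ± 20.7 to 941 ± 40.3 CPM in Total (mean ± SD, n = 3, as for all such values here), from 249 ± 15.4 to 919 ± 88.7 CPM in Light and from 763 ± 51.4 to 1366 ± 114 CPM in Heavy. Tripeptidyl peptidase 1 (Tpp1), which trims tripeptides from protein ends, rose from 37.8 ± 1.69 to 93.1 ± 13.5 CPM in Total and from 16.9 ± 0.964 to 72.9 ± 15.1 CPM in Light. Ctsz, an exopeptidase of the same family, had smaller rises, of 0.75 in Total, 0.90 in Light and 0.44 in Heavy on the log2 scale, the last lost without Heavy control library 3 or Heavy knockout library 2. Ctsf was barely detected, with 0.345 to 0.702 CPM in control Total and 1.49 to 2.64 CPM in knockout. On the log2(CPM + 1) scale its change in Total was 0.87 (limma adjusted p = 0.014), while the ratio of its mean CPM was 3.34. The Total call of Ctsf was lost without Total control library 2 and without Total knockout library 1.

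Cathepsin K (Ctsk), the collagenase of osteoclasts, was called in Light alone. Its Total libraries read 7.44, 6.31 and 6.47 CPM in control and 7.71, 6.18 and 7.24 CPM in knockout, which overlap (log2 change 0.05, 95% interval -0.25 to 0.35, adjusted p = 0.825). Light rose from 3.88, 3.23 and 3.85 CPM to 6.94, 5.74 and 5.15 CPM, without overlap (0.57, adjusted p = 0.0043; 0.34 and 0.0988 with quantile normalization). Heavy read 12.8, 10.1 and 9.77 CPM in control and 10.5, 8.73 and 7.63 CPM in knockout (-0.26, adjusted p = 0.195).

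**Figure D3:**
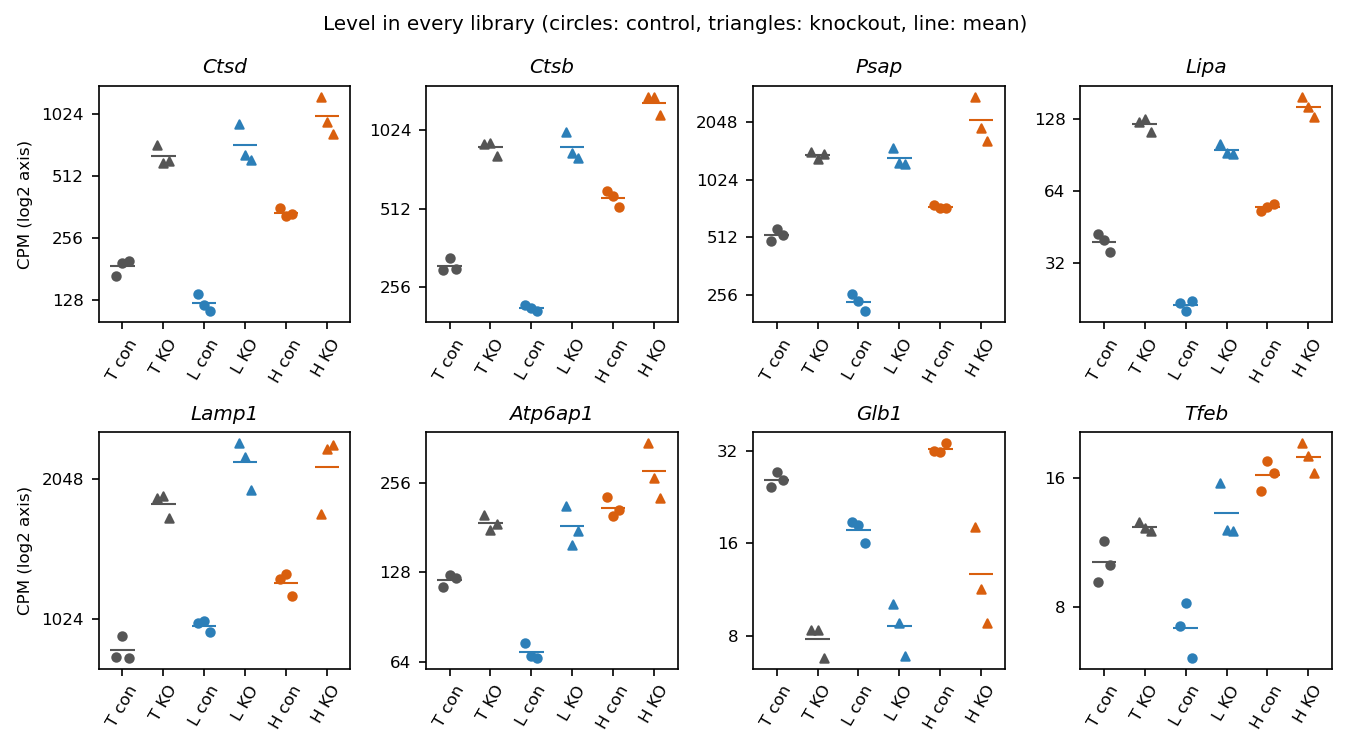
CPM on a log2 axis in every library for 8 of the 33 genes, with control as circles, knockout as triangles and the mean of 3 libraries as a line, in Total (T, grey), Light (L, blue) and Heavy (H, orange) RNA. Ctsd control libraries in Total lie at 168 to 199 CPM and knockout libraries at 593 to 724 CPM, while Glb1 knockout libraries lie below control in each fraction.

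Among the glycan-degrading enzymes 5 of 9 rose in Total, 7 in Light and 5 in Heavy, with Glb1 lower throughout. Lysosomal alpha-mannosidase (Man2b1) was at 38.5, 44.0 and 46.1 CPM in control Total and 95.04, 91.9 and 101 CPM in knockout. In Light it was at 22.1, 21.1 and 19.5 CPM against 103, 84.3 and 90.2 CPM, which made it 4.42-fold higher. Its log2 changes were 1.15, 2.09 and 1.72 (SE 0.16 each, limma adjusted p of 7.25e-05, 1.16e-07 and 1.15e-06). Hexa, the alpha subunit of beta-hexosaminidase, rose from 57.2 ± 4.63 to 142 ± 16.4 CPM in Total, from 55.6 ± 5.42 to 163 ± 32.7 CPM in Light and from 90.3 ± 5.78 to 190 ± 10.6 CPM in Heavy. Acid alpha-glucosidase (Gaa), which degrades glycogen, rose by 0.92 in Total, 1.98 in Light and 1.23 in Heavy. Manba, the beta-mannosidase, rose by 1.00, 1.66 and 1.22 from control means of 11.7, 6.99 and 13.2 CPM.

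Glb1, lysosomal beta-galactosidase, was the only one of the 33 to fall in all 3 fractions. It read 24.4, 27.4 and 25.7 CPM in control Total and 8.33, 8.34 and 6.77 CPM in knockout. The Light libraries read 18.7, 18.4 and 16.03 CPM against 10.1, 8.77 and 6.85 CPM. In Heavy the values were 32.0, 31.7 and 34.0 CPM against 18.1, 11.3 and 8.77 CPM. No knockout library reached the lowest control library of its fraction, and Glb1 fell by 1.61, 0.98 and 1.34 on the log2 scale (SE 0.19 each, limma adjusted p of 1.00e-05, 6.17e-04 and 5.19e-05). The exons of Glb1 share 5.5% of their bases with the same-strand gene Tmppe.

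Gusb, the beta-glucuronidase, moved little. It had 114, 120 and 121 CPM in control Total against 93.0, 105 and 102 CPM in knockout (log2 change -0.24, adjusted p = 0.1005), and 137, 141 and 137 CPM against 98.6, 131 and 124 CPM in Light (-0.24, adjusted p = 0.0714). Only the Heavy difference passed the test, with 141, 134 and 129 CPM against 102, 115 and 112 CPM (-0.30, adjusted p = 0.0399). That call was lost when any of the 3 Heavy control libraries or Heavy knockout library 1 was left out, with adjusted p up to 0.1299 over all alternatives.

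The other 3 enzymes of this group had small or fraction-dependent values. Neuraminidase 1 (Neu1), which removes sialic acid, rose by 0.60 in Total, 0.57 in Light and 0.40 in Heavy, the last with adjusted p = 0.0446, and it lost the Heavy call without any of 5 of the 6 Heavy libraries (all but knockout library 1). Naglu and Sgsh, which act on heparan sulfate, passed the test in Light alone. Naglu went from 6.51, 5.89 and 5.90 CPM to 16.4, 10.3 and 10.1 CPM in Light (0.87, adjusted p = 0.0089), and Sgsh from 10.6, 11.1 and 8.84 CPM to 20.6, 14.7 and 14.05 CPM (0.62, adjusted p = 0.0099). In both the knockout library numbered 1 was the highest. With only that Light library left out, neither passed (0.66 with adjusted p = 0.0558 for Naglu, 0.46 with 0.0609 for Sgsh). With the knockout libraries numbered 1 left out of every fraction, 30 of the 33 were called higher in Light, Naglu and Sgsh among them. Over the 18 alternatives the Light call was lost in 1 for Naglu and in 3 for Sgsh. The exons of Sgsh share 21.6% of their bases with Card14 on the opposite strand, and the sources used here do not state whether strand was used in counting.

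Genes of lipid handling rose together, 4 of 5 in Total, 5 of 5 in Light and 4 of 5 in Heavy. Prosaposin (Psap), the precursor of the saposins that present sphingolipids to hydrolases, read 492, 564 and 524 CPM in control Total against 1436, 1312 and 1403 CPM in knockout. In Light it read 259, 238 and 210 CPM against 1503, 1245 and 1230 CPM, a 5.63-fold rise of the mean. Heavy values were 755, 730 and 724 CPM against 2784, 1900 and 1624 CPM. The log2 changes of Psap were 1.39, 2.49 and 1.47 (SE 0.15 each, limma adjusted p of 6.43e-06, 1.20e-08 and 3.32e-06).

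Lysosomal acid lipase (Lipa), which hydrolyses cholesteryl esters and triglycerides, had the lowest adjusted p of the 33 in every fraction. Its Total libraries had 42.3, 39.7 and 35.5 CPM in control and 124, 128 and 112 CPM in knockout. Light had 21.7, 20.03 and 22.2 CPM against 101, 92.2 and 91.0 CPM, and Heavy 52.7, 54.9 and 56.3 CPM against 159, 144 and 130 CPM. These are rises of 1.61, 2.10 and 1.38 on the log2 scale (SE 0.10 each, limma adjusted p of 1.63e-08, 1.01e-09 and 6.17e-08). The cholesterol exporters Npc1, a membrane protein, and Npc2, a soluble one, also rose. Npc1 went from 33.7 ± 0.776 to 70.0 ± 4.05 CPM in Total, from 15.5 ± 1.33 to 55.3 ± 2.52 CPM in Light and from 26.7 ± 1.81 to 83.6 ± 24.2 CPM in Heavy. Npc2 went from 331 ± 9.56 to 625 ± 9.46 CPM in Total, from 569 ± 24.4 to 864 ± 46.1 CPM in Light and from 361 ± 32.1 to 606 ± 111 CPM in Heavy.

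Acid ceramidase (Asah1) passed the test in Light only (1.12, SE 0.24, limma adjusted p = 0.0015). Its Light libraries read 50.1, 52.3 and 50.6 CPM in control and 158, 91.7 and 96.7 CPM in knockout. In Total it read 108, 98.1 and 85.3 CPM against 188, 132 and 121 CPM, without overlap, and did not pass the test (0.57, adjusted p = 0.093).

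All 5 membrane proteins rose in Total, 4 in Light and 4 in Heavy. Lamp1, the abundant glycoprotein that lines the lysosomal membrane, read 849, 942 and 845 CPM in control Total and 1858, 1880 and 1689 CPM in knockout. In Light it read 1002, 1011 and 959 CPM against 2438, 2281 and 1935 CPM, and in Heavy 1245, 1277 and 1145 CPM against 1723, 2364 and 2414 CPM. The log2 changes of 1.04, 1.16 and 0.81 had an SE of 0.13 each and limma adjusted p of 1.54e-05, 3.42e-06 and 1.50e-04. Lamp2, its paralogue and the membrane receptor of chaperone-mediated autophagy, rose from 81.7 ± 12.5 to 172 ± 37.8 CPM in Total, from 39.4 ± 7.11 to 119 ± 40.7 CPM in Light and from 81.9 ± 14.04 to 164 ± 51.7 CPM in Heavy. Its isoforms are not separated in a gene-level table.

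Scarb2 (LIMP-2), the carrier of glucocerebrosidase, had 38.1, 34.7 and 32.6 CPM in control Total and 69.2, 58.7 and 61.7 CPM in knockout. Its rise was 0.83 in Total, 1.60 in Light and 0.79 in Heavy (SE 0.14 each). Mcoln1, the calcium channel TRPML1, rose by 0.57, 0.98 and 0.45, from 31.8 ± 2.91 to 47.6 ± 3.53 CPM in Total. Cd63, a tetraspanin also found on exosomes, passed in Total alone, where it went from 535, 605 and 565 CPM to 779, 831 and 733 CPM (0.46, adjusted p = 0.0463). Leaving out any of the 6 Total libraries lost that call, with adjusted p up to 0.1324 over the alternatives. In Light the arms of Cd63 overlapped, with 848, 860 and 810 CPM against 1233, 1191 and 813 CPM (adjusted p = 0.1103).

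For the proton pump 3 of 5 genes rose in Total, 5 in Light and 4 in Heavy, with medians of 0.50, 1.25 and 0.50. Atp6ap1, an accessory protein needed for pump assembly, was at 114, 125 and 122.7 CPM in control Total and 199, 178 and 186 CPM in knockout. In Light it was at 73.9, 66.9 and 65.9 CPM against 215, 159 and 177 CPM, a rise of 1.39 on the log2 scale (limma adjusted p = 1.38e-06, SE 0.14). In Heavy the arms touched, with 229, 198 and 208 CPM against 349, 267 and 229 CPM (0.39, adjusted p = 0.0451), and the call was lost under 11 of 18 alternatives. Atp6v1b2, a subunit of the catalytic V1 sector, rose by 0.53, 1.25 and 0.50, with 102, 102 and 99.1 CPM against 142, 155 and 143 CPM in Total.

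Atp6v1a, the catalytic subunit itself, was at 88.8, 73.9 and 71.9 CPM in control Total and 126, 107 and 101 CPM in knockout (0.50, adjusted p = 0.172). It rose by 1.28 in Light and 1.24 in Heavy (SE 0.26 each), where the knockout library numbered 1 was highest at 74.0 and 163 CPM beside 46.1 and 50.8 CPM in Light and 83.1 and 70.2 CPM in Heavy. Atp6v1h, a regulatory V1 subunit, rose from 42.6 ± 1.20 to 73.0 ± 0.636 CPM in Light and from 81.6 ± 8.39 to 117 ± 23.8 CPM in Heavy, with 84.0 ± 6.83 and 101 ± 4.72 CPM in Total (adjusted p = 0.118). Atp6v0d1, of the membrane sector, rose in Total from 92.3 ± 5.15 to 117 ± 3.47 CPM (0.34, adjusted p = 0.0449), a call that leaving out any Total library lost. It rose in Light by 0.63 (adjusted p = 5.48e-04) and was at 161 ± 7.03 and 173 ± 13.1 CPM in Heavy.

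Tfeb, the regulator among the 33, was at a low level and passed the test in Light only. It read 9.17, 11.4 and 10.0 CPM in control Total and 12.7, 12.2 and 12.0 CPM in knockout, without overlap but short of the threshold (log2 change 0.25, 95% interval -0.01 to 0.52, adjusted p = 0.158). In Light it read 7.23, 8.20 and 6.10 CPM against 15.5, 12.1 and 12.0 CPM, a rise of 0.80 (adjusted p = 1.10e-04, SE 0.13). Heavy values overlapped, with 14.9, 17.5 and 16.4 CPM against 19.3, 18.02 and 16.5 CPM (0.13, adjusted p = 0.494). TFEB activity is set largely by its phosphorylation and location, which these libraries do not measure.

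Added together, the 33 genes took up a larger share of each knockout library. Their summed CPM was 4928 ± 219 in control Total and 10203 ± 500 in knockout, that is 0.493% and 1.02% of the reads and a 2.07-fold rise. In Light the sum went from 4408 ± 128 to 10980 ± 1362 CPM (2.49-fold) and in Heavy from 7031 ± 257 to 13569 ± 1178 CPM (1.93-fold). The knockout libraries numbered 1 had the highest value of their group for 20 of the 33 genes in Total, 31 in Light and 24 in Heavy. How often these libraries were highest over all genes was not counted. They also deviated most from their group mean over the 9651 genes averaging at least 5 CPM. Without these 3 libraries 27, 31 and 26 of the 33 were called in Total, Light and Heavy, with medians of 0.73, 1.08 and 0.69. That fit called 5367, 7374 and 5353 of all 17515 tested genes.

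**Figure D4:**
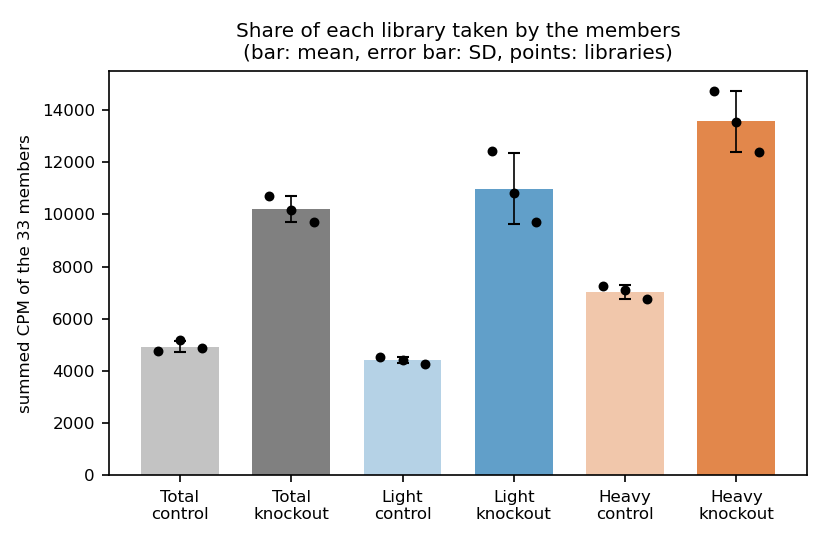
Summed CPM of the 33 genes in each of the 18 libraries (points), with the mean of 3 libraries as a bar and the SD as an error bar. In Total the sum rose from 4928 to 10203 CPM, and in each fraction every knockout library stands above every control library.

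Per kilobase of coding sequence the genes spanned a wide range of levels in Total. Cd63 (796 CPM per kb), Npc2 (741.5), Lamp1 (721), Ctsl (405), Psap (315) and Ctsb (303) led in control cells, while Manba (4.42), Naglu (4.00) and Ctsf (0.412) were lowest. In knockout cells the leaders were Lamp1 (1485 CPM per kb), Npc2 (1397) and Cd63 (1094). In control the libraries of Cd63 overlapped those of Npc2, and those of Npc2 overlapped those of Lamp1, on this scale. Glb1 moved from place 26 to place 32 of 33 in this order, Lipa from place 20 to 14 and Lamp2 from place 14 to 10.

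In control cells most of the 33 messages were more abundant, as a share of the fraction, in Heavy than in Light. The difference Heavy minus Light passed the test upward for 27 genes and downward for 1, where 23.6% of all tested genes were higher and 27.1% lower (50.7% in either direction). The median log2 difference was 0.92 for the 33 and -0.01 for all tested genes. Libraries of the fractions did not overlap for 29 genes with Heavy higher and 2 with Heavy lower, against 43.2% and 38.9% of genes of at least 5 CPM. Atp6v1b2 (1.69), Psap (1.65), Ctsl (1.61) and Atp6ap1 (1.61) had the largest differences. Npc2 alone passed in the other direction (-0.66, SE 0.12, limma adjusted p = 1.48e-04), and its coding sequence of 447 nucleotides is the shortest of the 33. With the trend over coding length removed, the Npc2 value was 0.16 and did not pass (adjusted p = 0.0720). Lamp1 (0.30, adjusted p = 0.0577), Gusb (-0.04), Neu1 (-0.10), Cd63 (-0.14) and Ctsf (0.56, adjusted p = 0.0685) did not pass. With same-numbered libraries of an arm grouped across Total, Light and Heavy, Ctsf passed (limma adjusted p = 0.0021). Over the 18 alternatives Lamp1 passed in 8 and Ctsf in 10, with Heavy higher in each.

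After Prmt1 deletion the Heavy to Light ratio was lower for nearly all of them. The ratio of mean CPM had a median of 1.97 in control and 1.443 in knockout, and it was below its control value for 32 of the 33, with Npc2 the exception (0.635 to 0.701). The ratio stayed above 1 for 28 genes in knockout, against 29 in control, Lamp1 being the gene that crossed (1.23 to 0.977). The interaction test asks whether the knockout change in Heavy differed from that in Light, and it found 9 genes lower and 0 higher, against 2.52% and 0.354% of all tested genes (2.87% in either direction). At an unadjusted p under 0.05 there were 17 of the 33, all lower, where 11.6% of all tested genes were lower and 3.96% higher (15.5% in either direction). The median interaction was -0.53 for the 33 and -0.02 for all tested genes.

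**Figure D5:**
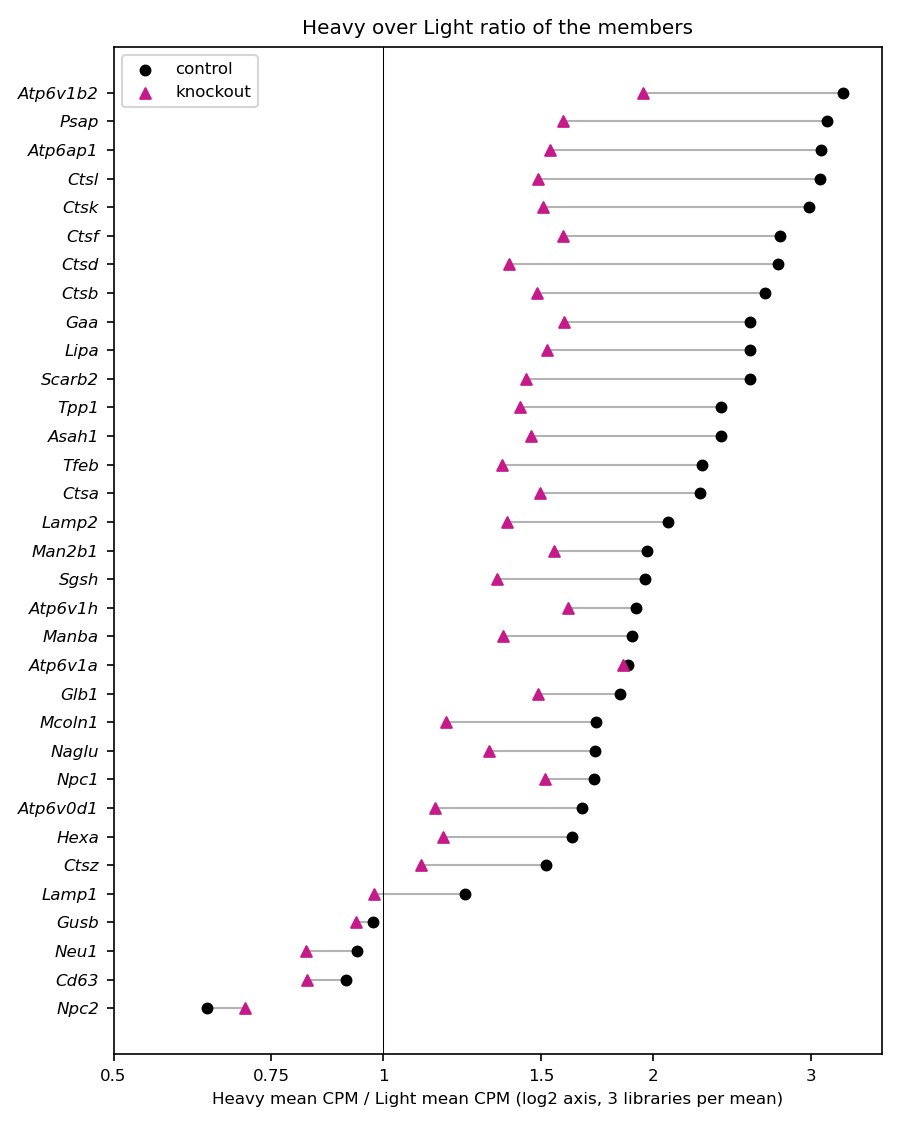
Ratio of mean CPM in Heavy to mean CPM in Light (log2 axis, 3 libraries per mean) for the 33 genes, in control (black circles) and knockout (magenta triangles), ordered by the control ratio. The triangle lies left of the circle for all genes but Npc2, and the median moves from 1.97 to 1.443.

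The 9 genes were 4 proteases, 2 of lipid handling, 1 membrane protein and 2 of the proton pump. Ctsl had the lowest p, with a Heavy to Light ratio of 3.07 in control and 1.49 in knockout (interaction -1.04, SE 0.14, limma adjusted p = 0.0085). Psap went from 3.13 to 1.59 (-1.01, SE 0.22, adjusted p = 0.026), Atp6ap1 from 3.08 to 1.54 (-1, SE 0.20, adjusted p = 0.0212) and Ctsd from 2.76 to 1.38 (-0.99, SE 0.23, adjusted p = 0.0327). For these genes the level rose in both fractions, and by more in Light. Ctsb (-0.84, adjusted p = 0.0194), Scarb2 (-0.80, adjusted p = 0.0365), Atp6v1b2 (-0.75, adjusted p = 0.0327) and Lipa (-0.72, adjusted p = 0.0212) had the same form. Ctsk (-0.83, adjusted p = 0.037) rose in Light and was below control in Heavy without passing there.

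This count of 9 depended on single libraries. It was 1 without Heavy control library 1, Heavy control library 2, Light control library 2 or Light control library 3, 2 without Heavy control library 3 or Light knockout library 1, and 4 without Heavy knockout library 2 or 3. Heavy knockout library 1 stood furthest from its group. Its root mean square deviation was 0.349 on the log2 scale over the 9651 genes averaging at least 5 CPM, against 0.0907 to 0.251 in the other 17. Without that library the count was 19. With same-numbered libraries of an arm grouped across all 3 fractions, the count was 11. That fit added Tpp1 (-0.74, limma adjusted p = 0.0364) and Tfeb (-0.67, adjusted p = 0.0331). Its groups held the Total libraries too, and in control Light and Total libraries of the same number did not deviate together. Fitted on the 12 Heavy and Light libraries alone, the count was 0, with median-of-ratios scaling 1 and with quantile normalization 4. In each of these fits every called member was lower. The count over all tested genes moved as well, from 503 in the main fit to 2011 without Heavy knockout library 1. It was 40, 29, 18 and 7 in the leave-one-out fits that gave 1 of the 33, in the order listed. With the libraries grouped by number it was 668, on the 12 libraries alone 8, with median-of-ratios scaling 45 and with quantile normalization 152.

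Set against Total, neither fraction gave a called difference in the knockout change. For Light over Total, 0 of the 33 passed and 0% of all tested genes did, and voom on the recovered reads also gave 0 of the 33. At an unadjusted p under 0.05 there were 19 of the 33, all higher, where 13.6% of all tested genes were higher and 2.72% lower (16.3% in either direction). The lowest adjusted p was 0.0666, for Ctsl (0.67), Psap (1.10) and Atp6v1b2 (0.72), and the median was 0.55 beside 0.03 for all tested genes. With the 12 libraries of Light and Total alone, or without the knockout libraries numbered 1, 12 genes passed, all higher. For Heavy over Total, 0 passed, against 0.0114% of all tested genes (0.00571% in each direction), and 0 by voom. At an unadjusted p under 0.05 there were 3 of the 33, 2 higher and 1 lower, near the 7.92% of all tested genes at that level (5.67% higher and 2.26% lower). The median was -0.09 beside 0.01 for all tested genes.

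Other genes of the lysosome were taken from lists chosen with earlier results of these data known. Their counts stand beside the 16.1%, 26.8% and 18.5% of all tested genes that rose in Total, Light and Heavy and the 10.3%, 12.7% and 10.4% that fell, and their medians beside 0.01, 0.05 and 0.02. Of 54 further hydrolases and membrane proteins, 28 rose and 3 fell in Total, 33 and 1 in Light, and 28 and 4 in Heavy, with median log2 changes of 0.50, 0.56 and 0.41. Gm2a, the activator of ganglioside breakdown, rose by 1.87 in Total, Ctso by 1.82 and Ctsh by 1.76, while Arsb (-0.71) and Galc (-0.35) fell. Lgmn, the asparagine-specific protease legumain, rose from 59.3, 50.1 and 48.3 CPM to 276, 189 and 196 CPM in Light (2.03), and its Heavy over Light interaction was -0.98 (adjusted p = 0.048). In that interaction 6 of the 54 were lower and 0 higher, beside 2.52% and 0.354% of all tested genes.

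Of 20 further V-ATPase genes, 8 rose and 1 fell in Total, 10 and 2 in Light, and 6 and 0 in Heavy, with medians of 0.25, 0.41 and 0.23. Atp6ap2, the other accessory protein of the pump, rose by 0.94, 1.68 and 0.81, and Tcirg1, an a subunit known from osteoclasts, by 0.71, 1.18 and 1.15. In the sorting list 6 of 29 rose and 1 fell in Total, 17 and 0 in Light, and 13 and 2 in Heavy, with medians of 0.20, 0.55 and 0.30. The Total count of this list is near the share over all tested genes. Igf2r, the mannose 6-phosphate receptor that carries hydrolases, went from 20.02, 24.4 and 24.8 CPM to 60.6, 63.0 and 63.1 CPM in Total (1.40, limma adjusted p = 8.7e-06). Sort1, the sorting receptor sortilin, rose by 1.51 in Total, 1.80 in Light and 1.37 in Heavy, and Ap1m1, of the AP-1 adaptor, fell in Total by 0.42.

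Of 24 genes of the TFEB family and of mTORC1 control at the lysosome, 5 rose and 0 fell in Total, 12 and 1 in Light, and 9 and 0 in Heavy, with medians of 0.09, 0.33 and 0.20. Here too the Total count is near the share over all tested genes. Tfe3 had 51.7, 60.4 and 60.9 CPM in control Total and 75.6, 68.1 and 73.4 CPM in knockout (0.33, adjusted p = 0.021). Fnip1 and Flcn, whose products form a complex that acts on mTORC1 signalling, rose by 0.84 and 0.33 in Total. In the autophagy list 10 of 32 rose and 1 fell in Total, 17 and 3 in Light, and 14 and 2 in Heavy, with medians of 0.24, 0.32 and 0.25. Sqstm1 (p62), the receptor that carries ubiquitinated cargo to autophagosomes, rose from 329 ± 19.7 to 1134 ± 35.9 CPM in Total, and by 2.66 on the log2 scale in Light. Map1lc3b, the autophagosome protein LC3B, rose by 1.06 in Total, and Ulk2, an initiating kinase, fell by 1.57.

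Macrophages and osteoclasts are rich in lysosomal messages, and their markers were measured beside these results. Of 14 macrophage markers 11 were in the table, and their summed CPM was 6.70 to 8.94 in the control and 16.9 to 20.1 in the knockout libraries of Total. In Light the sum was 8.503 to 9.37 against 17.1 to 23.1, and in Heavy 9.18 to 10.2 against 12.5 to 16.1. Of the 10 macrophage markers tested, 4 were called higher in Total, 4 in Light and 3 in Heavy, and 0 lower. Over all tested genes 16.1%, 26.8% and 18.5% were higher and 10.3%, 12.7% and 10.4% lower. Those in Total were Csf1r, Cd68, Cd14 and Lyz2, and Csf1r went from 3.59 to 8.84 CPM there. The macrophage markers Ptprc and Tyrobp were at 0 in 14 and 17 of the 18 libraries and reached at most 0.0721 and 0.0197 CPM. The Ptprc values above 0 lay in Light libraries of both arms and in a knockout Total library. The Tyrobp value above 0 lay in a knockout Light library. Of 10 osteoclast markers 9 were in the table, with summed CPM of 71.5 to 88.2 in control and 60.8 to 85.0 in knockout Total, nearly all of it Nfatc1. In Light the osteoclast sum was 45.6 to 60.6 in control and 69.8 to 85.4 in knockout, and in Heavy 90.2 to 106 and 91.9 to 100.3. Of the 8 osteoclast markers tested, 1, 3 and 2 were called higher in Total, Light and Heavy, and 0 lower. These counts are near the shares over all tested genes. The osteoclast marker Dcstamp was at 0 in 15 of 18 libraries and Acp5 was at most 0.236 CPM. The Dcstamp values above 0 were all in knockout libraries. Mean Itgb3 went from 7.04 to 9.26 CPM in Total, 8.16 to 12.9 in Light and 10.3 to 14.7 in Heavy. Mean Nfatc1 went from 74.5 to 63.4 CPM in Total, 46.6 to 59.4 in Light and 84.9 to 77.3 in Heavy. The part of such cells in the lysosomal changes was not tested.

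Markers of the osteoblast lineage, from which osteosarcoma arises, also moved. All 12 were in the table, 4 of them below 1 CPM on average, and their summed CPM was 4335 to 6132 in control and 6032 to 7862 in knockout Total. In Light the sum was 2337 to 2812 in control and 4565 to 7499 in knockout, and in Heavy 4127 to 5583 and 6438 to 13184. Of the 11 tested, 5 were called higher and 2 lower in Total, 6 and 2 in Light, and 5 and 1 in Heavy. Over all tested genes 16.1%, 26.8% and 18.5% were higher and 10.3%, 12.7% and 10.4% lower. Alpl rose by 1.52 in Total while Runx2 fell by 0.70 and Sp7 by 1.46. The part of such a shift in the lysosomal changes was not tested.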

How the data were processed

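Values were deposited by the authors as log2(CPM + 1), 19862 genes by 18 libraries. STAR, edgeR and mm10 are named per the submitters' processing notes; no source used here gives versions, the counter, its annotation or its use of strand. Reversing the log2 returned whole reads for 100% of values within 0.1 read, with 32255673 to 57948663 reads per library.

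A limma model (3.58.1, R 4.3.3, trend and robust variances, 6 group means, all 18 libraries) was fitted to the 17515 genes above 0 in at least 3 libraries, with Benjamini-Hochberg adjustment over all of them and a threshold of 0.05. There were 7 comparisons: knockout against control in each fraction, the differences of that change between fractions, and Heavy against Light in control. Scripts were tested on simulated data. Alternatives covered scaling, filter, pseudocount, count model, variance model, coding length, libraries and pairing.

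The members and lists were chosen with earlier results of these data known. Named members are those with the lowest p or the largest change of each role, plus Tfeb; from other lists at most 3 called genes per direction and comparison with a mean of at least 5 CPM. Marker genes were named after their values were seen.

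Same-numbered libraries were checked for pairing over 9651 genes. Heavy and Light deviated together in control (r 0.368 to 0.471, and at most 0.175 between different numbers). The numbers thus pair these fractions in control, as a hint from the data and not from the labels. In knockout same-numbered Heavy and Light libraries gave 0.263 to 0.641, but different numbers reached 0.545, so these values do not settle pairing there. Light and Total knockout libraries also deviated together (0.461 to 0.648, and at most 0.307 between different numbers), while Light and Total control libraries did not (-0.681 to 0.383). Control and knockout libraries did not pair in any fraction. Replicates of a group differed beyond sampling noise (chi-square per degree of freedom 12.8 to 254). Coordinates, overlaps and coding lengths are GRCm38, and promoters are RefSeq windows (GRCm38.p6). No protein sequences were used here.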

Additional observations from a re-analysis of the deposited data

Results flagged for a closer look

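For 9 of the 33 genes the knockout change differed between Heavy and Light RNA by an interaction test (limma, adjusted over all genes). The differences, Heavy minus Light on the log2 scale, were -1.04 for Ctsl, -1.01 for Psap, -1 for Atp6ap1, -0.99 for Ctsd, -0.84 for Ctsb, -0.83 for Ctsk, -0.8 for Scarb2, -0.75 for Atp6v1b2 and -0.72 for Lipa, each from 3 libraries per group. Ctsl kept its call in 23 of 24 alternatives and Scarb2 in 11 of 24. No group has more than 3 libraries, so single libraries were not tested as outliers.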

How the results depend on the processing

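In the 3 knockout comparisons the counts of called genes stayed within 1.5 times of 25 in Total, 31 in Light and 26 in Heavy under every alternative run, and all 33 genes were tested in each. The Heavy count moved furthest, to 18 with the libraries of the comparison alone and 21 with median-of-ratios scaling. Over all tested genes the first of these fits called 2976 and the second 5531, against 5061 in the main fit. Leaving out 1 library at a time gave 22 to 23, 29 to 32 and 22 to 25, and 26 to 28 of the 28 for Heavy against Light in control. The same call held in every alternative for 22 of 25 genes in Total, 27 of 31 in Light, 17 of 26 in Heavy, 25 of 28 for Heavy against Light in control and 0 of 9 for Heavy over Light.

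For Heavy over Light the 9 became 4 with quantile normalization, 1 with median-of-ratios scaling, 0 with the libraries of the comparison alone and 16 without all knockout libraries numbered 1. Over all tested genes the 503 became 152, 45, 8 and 1872 in these fits. Leaving out 1 library at a time gave 1 to 19 of the 33 and 7 to 2011 over all tested genes. For Light over Total the 0 became 1 with quantile normalization, 7 with only genes averaging 1 CPM or more and 8 without trend or robust variances. It was 12 both with the libraries of the comparison alone and without all knockout libraries numbered 1. Over all tested genes those fits called 17, 347, 548, 1143 and 785, against 0 in the main fit. On leaving out 1 library the count of the 33 was 0 to 0. Heavy over Total gave 0 throughout. The cause was not tested. Npc2 in Heavy against Light in control turned from -0.66 to 0.16 with the coding-length trend removed, with and without the replicate block (adjusted p 0.0973 and 0.072).

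Scaling moved the share of upward calls over all genes from 60.9% to 48.8% in Total (quantile), from 67.9% to 47.3% (quantile) and 47.2% (median of ratios) in Light, and from 64.1% to 48.9% and 48.0% in Heavy. Under quantile normalization 22, 28 and 22 of the 33 were higher in the 3 fractions and 1, 2 and 2 lower; under median of ratios 22, 28 and 19 higher and 1, 2 and 2 lower.

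The replicate block grouped all 18 libraries by number, and within each arm for the comparisons between fractions. With the replicate block 24, 31 and 26 genes were called in Total, Light and Heavy, 0 in both comparisons with Total, 11 for Heavy over Light and 29 for Heavy against Light in control. It removed Atp6v0d1 in Total (adjusted p 0.0526) and added Tpp1 and Tfeb for Heavy over Light and Ctsf for Heavy against Light; no other call of the 33 changed. Ctsf was below 1 CPM in control Total, and the effect of depth on its values was not tested.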
